A study of Mus musculus with 65 samples.

Results

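The genes described here are 37 genes of DNA repair and of the DNA damage checkpoint, taken from the major repair routes by name. Of these, 36 of the 18194 genes of the mouse array had a probe set assigned to that gene alone, and Xrcc2 was not analysed here. Each gene is represented by its brightest such probe set in the tissue concerned, and 15 of the 36 have only 1. A filter on mean level kept 34 of the 36 in mammary glands, where Bard1 and Brip1 lay under it, and 35 in mammary tumours, where Bard1 lay just under it. Levels are log2 values, and the level of one gene is never set against that of another, since probe sets differ in brightness.

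The glands were posterior pieces of the fourth, inguinal, mammary gland of BALB/c mice, free of the lymph node, so they hold fat, vessels and stroma as well as epithelium. The mice were littermates, 10 weeks old, either wild-type or heterozygous for Tgfb1, the gene of transforming growth factor beta 1. All received estrogen and progesterone to bring their cycles into step, and then 10 cGy of ionizing radiation or a sham treatment. The 3 wild-type groups, sham, 1 week and 4 weeks past the 10 cGy, had 3 arrays each. The matching heterozygous groups had 3, 2 and 3. Sham glands were taken at 1 week, so the 1-week and 4-week comparisons share their control arrays, and the 4-week comparisons also span the added time in age. The 48 tumours had grown from p53-null BALB/c mammary fragments, transplanted into inguinal fat pads whose own epithelium had been removed at 3 weeks of age. Their hosts were wild-type sham-irradiated (9 tumours), wild-type irradiated (23), Tgfb1-heterozygous sham-irradiated (6) or Tgfb1-heterozygous irradiated (10), the irradiation coming 3 days before transplantation. No label used here states the dose the hosts received. For 1 tumour of the irradiated wild-type hosts, replicate 1, the title says irradiated and another label says sham, and it was placed by its title. In bulk tissue, fewer cells of a type and less RNA per cell cannot be told apart.

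As background, cells mend double-strand breaks by homologous recombination, which copies from the sister chromatid and therefore works in S and G2 phase, or by end joining, which rejoins ends in any phase. Small base lesions, bulky adducts, interstrand crosslinks and mispaired bases go to base excision, nucleotide excision, the Fanconi anaemia pathway and mismatch repair. Many genes of recombination and replication-linked repair are transcribed mainly in cycling cells under E2F factors, whereas damage sensors and excision genes are often expressed throughout the cycle. Mki67, which encodes the Ki-67 protein of cycling cells, therefore serves as the reference against which each gene was read, array by array.

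Array medians were 29.08 to 30.56 in deposited intensity units in glands and 5.84 to 5.96 in deposited log2 units in tumours. Tgfb1 itself averaged between 4.93 and 5.16 over the wild-type gland groups and between 3.83 and 4.42 over the heterozygous ones. In glands the mean log2 levels of the luminal, basal and adipocyte marker lists lay at 10.56 to 11.43, 9.06 to 9.95 and 11.47 to 12.19. Skeletal muscle markers ran from 3.85 to 11.70, highest in wild-type sham replicate 2, and B cell and lymph node markers from 3.67 to 7.78, highest in the wild-type 1-week replicate 1. In tumours the luminal list ran from 7.09 to 12.72 and was under 9 in 4 tumours (sham wild-type host replicate 6 and irradiated wild-type host replicates 2, 7 and 23).

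In glands, Mki67 spanned a range of 3.04 log2 units, and 6 of the 7 recombination genes tested, Chek1, Lig1, Ung, Msh6 and Fanca rose with it in the limma fit below, while no gene of break sensing, end joining or nucleotide excision passed in that fit. Mki67 measured 9.81, 7.26 and 9.20 in the wild-type sham glands, 8.13, 9.58 and 9.01 in the wild-type glands 1 week after 10 cGy and 9.32, 9.21 and 10.30 in those at 4 weeks. Heterozygous glands gave Mki67 levels of 8.76, 9.35 and 9.87 after sham treatment, 9.67 and 10.08 at 1 week and 8.22, 9.79 and 9.29 at 4 weeks. Its lowest 2 arrays were wild-type sham replicate 2 and the wild-type 1-week replicate 1, and its levels overlapped between all pairs of groups except the heterozygous 1-week glands against wild-type 1-week glands. Each gene was fitted with limma on the Mki67 level of the same array, in a model with a mean for every group, so a slope of 1 means a doubling of the gene for every doubling of Mki67. With Benjamini-Hochberg adjustment over 12944 genes, 11 of 34 repair genes rose with Mki67 and 0 fell, against 2.51% of all genes that rose and 0.409% that fell. At an unadjusted p under 0.05 there were 18 with a positive and 2 with a negative slope, against 14.4% of all genes in either direction. By correlation over the 17 arrays, 12 of 34 passed with a positive Pearson r (2.75% of all genes) and 12 with a positive Spearman rho (3.01%), in each case the same 11 and Mre11a. The median Pearson r with Mki67 was 0.551 for the 34 genes and -0.011 for all genes tested.

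Homologous recombination gave 6 of the 7 genes tested. Brca1, whose protein directs resection and the loading of the recombinase, rose by 0.95 (SE 0.08, adjusted p = 1.97e-05) per log2 unit of Mki67. Exo1, a nuclease that resects broken ends, had a slope of 0.93 (SE 0.13, adjusted p = 0.000647), Rad54l, a motor that drives strand invasion, 0.66 (SE 0.08, adjusted p = 0.000280), and Blm, the Bloom helicase, 0.57 (SE 0.07, adjusted p = 0.000272). The slopes of Brca2, which loads the recombinase onto single strands, and of Palb2, which links it to Brca1, were lower, at 0.44 (SE 0.06, adjusted p = 0.00105) and 0.36 (SE 0.07, adjusted p = 0.00789). Rad52, an annealing factor, was the exception with a slope of -0.01 (SE 0.07, adjusted p = 0.971). Brca1 measured 6.69, 4.57 and 5.97 in the wild-type sham glands, 4.80, 6.39 and 5.30 in the wild-type glands 1 week after 10 cGy and 5.63, 5.80 and 7.03 in those at 4 weeks. Heterozygous glands gave Brca1 levels of 5.77, 6.02 and 6.82 after sham treatment, 6.16 and 6.20 at 1 week and 5.25, 7.14 and 6.42 at 4 weeks. Within each of 5 of the 6 groups the array with the least Mki67 also had the least Brca1, and the lowest level of all was in wild-type sham replicate 2. Brca1 levels overlapped between all groups.

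Brca2 and Rad54l showed the same order of arrays at the low end. Brca2 measured 6.87, 5.86 and 6.65 in the wild-type sham glands, 6.13, 6.68 and 6.42 in the wild-type glands 1 week after 10 cGy and 6.79, 6.32 and 6.97 in those at 4 weeks. Heterozygous glands gave Brca2 levels of 6.49, 6.42 and 7.09 after sham treatment, 6.80 and 7.29 at 1 week and 6.33, 7.15 and 6.76 at 4 weeks. Wild-type and heterozygous 1-week glands did not overlap in Brca2, as they did not in Mki67. The other groups overlapped, and the range of Brca2 over the 17 arrays was 1.42 log2 units, from the sham wild-type replicate with the least Mki67 to a heterozygous 1-week gland. Rad54l measured 6.59, 5.00 and 5.75 in the wild-type sham glands, 5.18, 6.35 and 5.38 in the wild-type glands 1 week after 10 cGy and 5.86, 6.05 and 6.60 in those at 4 weeks. Heterozygous glands gave Rad54l levels of 5.89, 6.30 and 7.05 after sham treatment, 6.43 and 6.51 at 1 week and 5.62, 6.81 and 6.28 at 4 weeks. The range of Rad54l was 2.05 log2 units, with the same single pair of groups apart. Over the 17 arrays Pearson r with Mki67 was 0.896 for Brca1, 0.897 for Brca2 and 0.885 for Rad54l, and the permutation p of each was 1e-05, the smallest that 100000 resamples can give (adjusted p = 0.00121). Spearman's rho was 0.880, 0.892 and 0.936. Without the 2 arrays farthest from the Mki67 median, r was still 0.818, 0.813 and 0.803.

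Of the 4 checkpoint kinases, 1 passed, Chek1. Chek1 encodes the kinase that holds the cycle when replication stalls, and its slope of 0.84 (SE 0.07, adjusted p = 9.02e-06) came with an r of 0.920 (permutation p = 1e-05, rho = 0.875, and 0.812 without the 2 arrays farthest from the Mki67 median), the highest of the 34 repair genes and the 35th highest of the 12944 genes. Chek1 measured 7.05, 4.83 and 6.25 in the wild-type sham glands, 5.30, 6.61 and 5.84 in the wild-type glands 1 week after 10 cGy and 6.70, 6.36 and 7.09 in those at 4 weeks. Heterozygous glands gave Chek1 levels of 5.98, 6.89 and 7.22 after sham treatment, 6.60 and 6.81 at 1 week and 5.94, 7.25 and 6.94 at 4 weeks. The 2 arrays lowest in Chek1 were the 2 lowest in Mki67, and all groups overlapped. Atr, the kinase that activates Chek1, had a slope of 0.06 (SE 0.07, adjusted p = 0.756). Atm, the kinase first activated at double-strand breaks, had a slope of 0.05 (SE 0.05, adjusted p = 0.712), and Chek2, which Atm activates, 0.13 (SE 0.05, adjusted p = 0.241). Atm measured 7.31, 7.01 and 7.19 in the wild-type sham glands, 7.46, 7.14 and 7.20 in the wild-type glands 1 week after 10 cGy and 7.30, 7.13 and 7.38 in those at 4 weeks. Heterozygous glands gave Atm levels of 7.20, 7.12 and 7.11 after sham treatment, 7.28 and 7.42 at 1 week and 7.18, 7.37 and 7.20 at 4 weeks. Atm spanned only 0.45 log2 units over the 17 glands, and its lowest level was in the sham gland that was also lowest for Mki67.

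Of the 7 genes of base excision and single-strand break repair, Lig1 and Ung followed Mki67 and the other 5 did not pass. Lig1, which seals Okazaki fragments and long repair patches, had a slope of 0.61 (SE 0.08, adjusted p = 0.000421), and Ung, which removes uracil from DNA, 0.48 (SE 0.10, adjusted p = 0.0125). Lig3, Xrcc1, Parp1 and Apex1, which act at single-strand breaks and abasic sites, had slopes from 0.10 for Xrcc1 to 0.14 for Apex1, none past the threshold, and Ogg1, the oxidised guanine glycosylase, had -0.07 (SE 0.08, adjusted p = 0.745). Parp1 measured 8.60, 8.20 and 8.28 in the wild-type sham glands, 8.42, 8.32 and 8.23 in the wild-type glands 1 week after 10 cGy and 8.36, 8.60 and 8.36 in those at 4 weeks. Heterozygous glands gave Parp1 levels of 8.31, 8.30 and 8.65 after sham treatment, 8.44 and 8.49 at 1 week and 8.43, 8.84 and 8.63 at 4 weeks. Parp1 lay within 0.64 log2 units in all glands, and the wild-type 1-week levels lay below those of both irradiated heterozygous groups. Ogg1 measured 5.62, 5.53 and 5.31 in the wild-type sham glands, 5.62, 5.62 and 5.63 in the wild-type glands 1 week after 10 cGy and 5.60, 5.56 and 5.36 in those at 4 weeks. Heterozygous glands gave Ogg1 levels of 5.93, 5.30 and 5.93 after sham treatment, 5.95 and 5.51 at 1 week and 5.82, 5.47 and 5.70 at 4 weeks. Ogg1 ranged over 0.65 log2 units, the sham and irradiated groups overlapped, and its r with Mki67 of -0.128 came after Xpa and Xpc as the lowest of the repair genes. In mismatch repair Msh6, a lesion-recognition subunit, rose with Mki67, with a slope of 0.40 (SE 0.06, adjusted p = 0.000883), while Pms2 had 0.09 (SE 0.07, adjusted p = 0.584). In the Fanconi anaemia group Fanca, a core complex subunit, had a slope of 0.46 (SE 0.07, adjusted p = 0.00196), and Fancg and Fancd2 had 0.20 (SE 0.07, adjusted p = 0.197) and 0.25 (SE 0.07, adjusted p = 0.0814).

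None of the 3 break sensors, the 3 end joining genes or the 5 nucleotide excision genes passed the limma fit on Mki67 in glands. Mre11a, the nuclease of the break-sensing complex, came closest of the sensors with a slope of 0.26 (SE 0.07, adjusted p = 0.0690). By correlation it did pass, with r = 0.737 (permutation adjusted p = 0.0269) and rho = 0.772 (adjusted p = 0.0244), as it did in limma with quantile normalization, without group means, and without the 2 arrays farthest from the Mki67 median. Rad50 and Nbn, its partners, had 0.03 and 0.08. Xrcc5 and Xrcc6, the Ku subunits that hold broken ends, had slopes of 0.21 and 0.13, and Lig4, the ligase of end joining, 0.22. With array weights, which give less weight to arrays that depart from the fit, all 3 end joining genes passed, Lig4 with 0.24 (adjusted p = 0.0221), Xrcc5 with 0.32 (adjusted p = 0.0319) and Xrcc6 with 0.20 (adjusted p = 0.0345), as did Mre11a with 0.32 (adjusted p = 0.00324), while Xpa fell with -0.26 (adjusted p = 0.0255). That fit called 20 of 34 repair genes rising, against 7.34% of all genes. The 0 of 3 for end joining is thus that of the fit on Mki67 with all gland arrays and without weights. Leaving out either heterozygous 1-week array gave Lig4 a slope of 0.23. With the mean of a list of proliferation genes (Top2a, Cdk1, Plk1 and others) in place of Mki67, Mre11a and Lig4 passed too, among 14 of 34 (3.65% of all genes). Xpc, which recognises bulky lesions, and Xpa, which verifies them, had negative slopes, -0.19 (SE 0.05, adjusted p = 0.0526) for Xpc and -0.25 (SE 0.08, adjusted p = 0.136) for Xpa. Xpc fell past the threshold with the mean of probe sets (adjusted p = 0.0362), without the trend in limma (adjusted p = 0.0485) and with the proliferation list (adjusted p = 0.0227). Xpc has a single probe set, so its own values and slope of -0.19 were unchanged in the first 2 of these fits. Only its standard error and the adjustment over genes differed there. Xpc measured 7.22, 7.64 and 7.28 in the wild-type sham glands, 7.45, 6.93 and 7.14 in the wild-type glands 1 week after 10 cGy and 7.60, 7.39 and 7.32 in those at 4 weeks. Heterozygous glands gave Xpc levels of 7.41, 7.37 and 7.06 after sham treatment, 7.32 and 7.30 at 1 week and 7.24, 7.07 and 7.30 at 4 weeks. The gland with the least Mki67 had the highest Xpc, the sham and irradiated groups overlapped, and without the 2 arrays farthest from the Mki67 median r moved from -0.525 to -0.204. Xpa measured 6.28, 6.62 and 6.23 in the wild-type sham glands, 6.36, 6.04 and 6.13 in the wild-type glands 1 week after 10 cGy and 6.36, 6.77 and 6.24 in those at 4 weeks. Heterozygous glands gave Xpa levels of 6.51, 6.53 and 5.93 after sham treatment, 6.58 and 5.74 at 1 week and 6.71, 6.28 and 6.43 at 4 weeks. For Xpa the 2 lowest levels were in a heterozygous sham and a heterozygous 1-week gland, both among the 3 highest for Mki67, and r was -0.552 with all arrays and -0.596 without the 2 arrays farthest from the Mki67 median. Ddb1, the adaptor of the damage-recognising ubiquitin ligase, had a slope of 0.10 (SE 0.04, adjusted p = 0.311). Ddb1 measured 9.93, 9.79 and 9.96 in the wild-type sham glands, 9.62, 9.94 and 9.94 in the wild-type glands 1 week after 10 cGy and 9.93, 9.84 and 10.01 in those at 4 weeks. Heterozygous glands gave Ddb1 levels of 9.85, 9.90 and 10.00 after sham treatment, 9.98 and 9.67 at 1 week and 9.69, 9.84 and 9.92 at 4 weeks. Ddb1 varied by 0.39 log2 units, and no group stood apart.

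**Figure D1:**
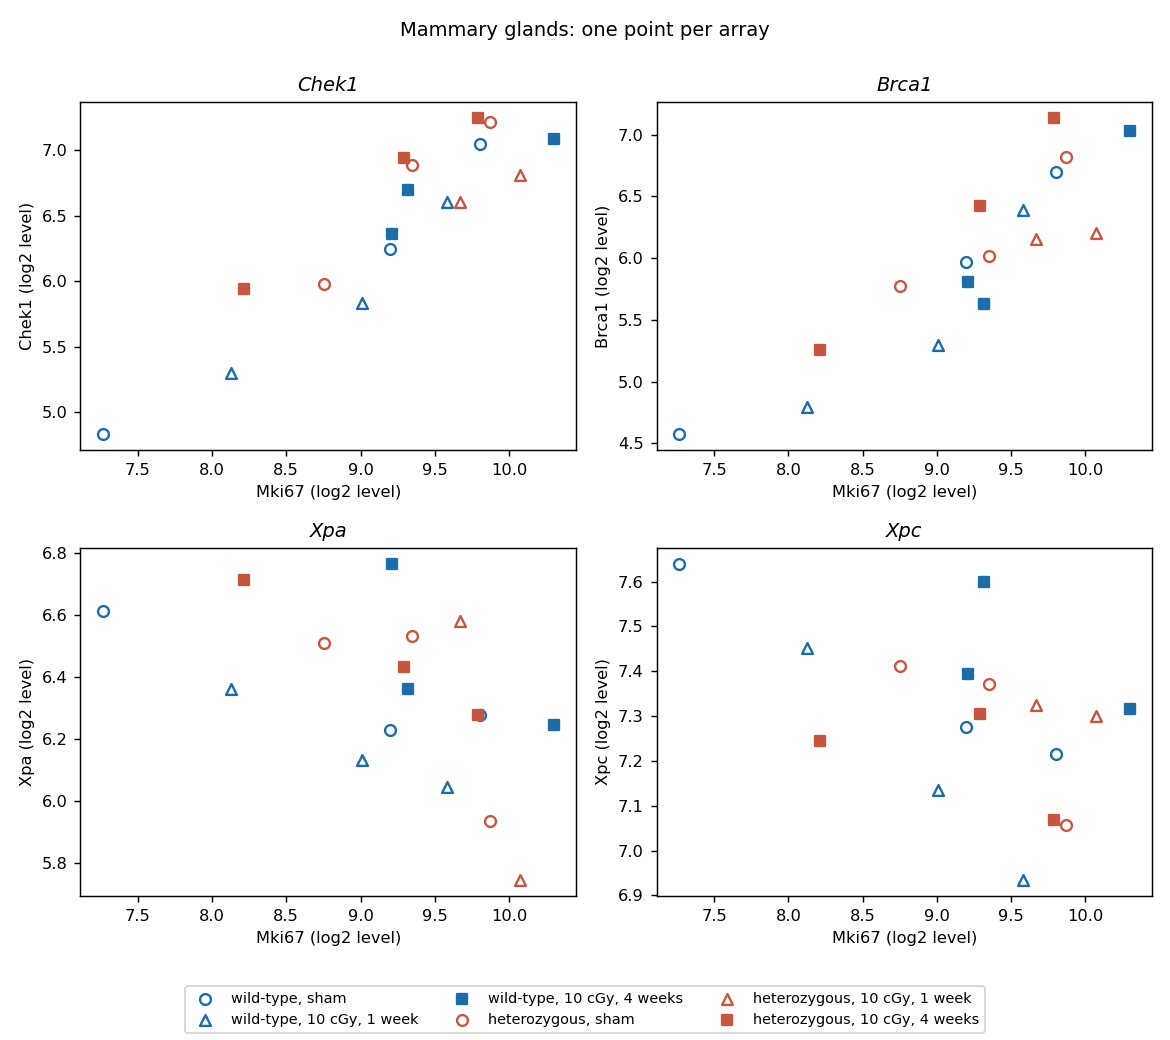
Log2 levels of Chek1, Brca1, Xpa and Xpc (vertical axes) against the log2 level of Mki67 (horizontal axes) in 17 mammary glands, 1 point per array, with colour for genotype and symbol for treatment and time. Chek1 and Brca1 climb with Mki67 (Pearson r 0.920 and 0.896) and Xpa and Xpc lie lower where Mki67 is high (-0.552 and -0.525).

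The 2 arrays lowest in Mki67 were also the highest in muscle markers (11.70) and in lymph node markers (7.78), so the gland calls were read again with those markers taken into account. With the muscle and the lymph node list means as covariates 10 of the 11 passed (1.78% of all genes rose), all but Ung, and the same 10 passed without the 2 arrays rich in lymph node markers (2.19%). Leaving out the 7 arrays whose muscle list lay over 2 log2 units above the median of all glands left 10 arrays and 6 calls, Brca1, Chek1, Exo1, Lig1, Rad54l and Ung, against 1.1% of all genes. The slopes of the 5 genes that lost their call were no lower there, at 0.62 (from 0.57) for Blm, 0.49 (from 0.44) for Brca2, 0.59 (from 0.46) for Fanca, 0.41 (from 0.40) for Msh6 and 0.39 (from 0.36) for Palb2, and the median SE of the 11 genes was 0.10 against 0.07. Without the 2 arrays farthest from the Mki67 median, 12 genes passed, against 2.63% of all genes, with Fanca lost and Apex1 and Mre11a gained. Leaving out wild-type sham replicate 1 gave Ung a slope of 0.47 (adjusted p = 0.0601), and no other call was lost when a single array was left out. Over the 17 arrays the muscle list correlated with Mki67 at r = -0.244 and the fibroblast list at -0.407.

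Sequence before the start site was examined because several of these genes moved together and many cycle genes are controlled there. RefSeq promoter windows (GRCm38.p6, the C57BL/6J reference, from 250 bases before to 50 after the start) were given for 31 of the 36 genes. Both strands were searched for an E2F set (TTTCCCGC, TTTCGCGC, TTTGCCGC or TTTGGCGC), for the CHR element TTTGAA and for CCAAT. The E2F set was in 7 of 31 windows (22.6%), against 3.81% of 14453 genes of the array with a window. CHR was in 1 of 31 (3.23%, against 15.7%), and CCAAT in 18 of 31 (58.1%, against 42.0%). Among the genes that followed Mki67 in both tissues by the limma fit, 2 of 8 with a window held the E2F set (25%), Brca2 and Lig1. Among those that followed it in 1 tissue alone it was 2 of 7 (28.6%), Chek2 and Msh6, and among those tested that followed it in neither, 2 of 15 (13.3%), Fancg and Xrcc6. The other holder was Bard1, which was under the filter in both tissues. These shares were not tested against each other. In Lig1 and Msh6 the match lies after the start, in transcribed sequence that is not printed. The 5 E2F matches that lie before the start are shown first, each printed 5' to 3' along the gene's own strand. Capitals mark every match to the 3 motifs on either strand, so that GCGGGAAA is TTTCCCGC read from the other strand.
Brca2 (chr5:150522421-150522520, plus strand): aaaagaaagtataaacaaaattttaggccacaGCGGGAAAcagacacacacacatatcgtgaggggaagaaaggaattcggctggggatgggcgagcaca
Chek2 (chr5:110839783-110839882, plus strand): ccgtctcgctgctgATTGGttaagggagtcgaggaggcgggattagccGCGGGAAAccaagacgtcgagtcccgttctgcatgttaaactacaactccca
Bard1 (chr1:71103123-71103222, minus strand): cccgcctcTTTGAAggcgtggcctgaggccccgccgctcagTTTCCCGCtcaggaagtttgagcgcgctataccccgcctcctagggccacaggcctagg
Fancg (chr4:43010302-43010401, minus strand): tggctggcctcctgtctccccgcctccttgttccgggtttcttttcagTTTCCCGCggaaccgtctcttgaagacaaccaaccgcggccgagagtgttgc
Xrcc6 (chr15:82016269-82016368, plus strand): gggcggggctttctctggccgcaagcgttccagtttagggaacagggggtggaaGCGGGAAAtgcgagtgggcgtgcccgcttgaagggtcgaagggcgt
Of the closest followers by r, Lig1 in tumours and Brca2 in glands hold the E2F letters, and the next stretches show others that do not, Chek1, with 0 matches to any of the 3 motifs, and Brca1 and Rad54l, with a CCAAT only. Mki67 is added as the reference, with its 3 CCAAT and 2 CHR matches.
Chek1 (chr9:36726659-36726758, minus strand): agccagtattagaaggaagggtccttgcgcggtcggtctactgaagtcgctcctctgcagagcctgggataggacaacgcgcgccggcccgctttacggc
Brca1 (chr11:101552006-101552105, minus strand): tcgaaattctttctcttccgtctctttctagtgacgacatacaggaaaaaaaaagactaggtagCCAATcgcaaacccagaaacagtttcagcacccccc
Rad54l (chr4:116123691-116123790, minus strand): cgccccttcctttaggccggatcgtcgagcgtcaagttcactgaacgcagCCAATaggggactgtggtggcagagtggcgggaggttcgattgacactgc
Mki67 (chr7:135716460-135716579, minus strand): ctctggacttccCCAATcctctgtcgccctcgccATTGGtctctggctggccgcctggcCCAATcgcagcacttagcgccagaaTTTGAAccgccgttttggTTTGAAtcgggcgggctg
In these stretches no match overlapped another. Of the 5 genes with the E2F letters before the start, Brca2 rose with Mki67 in both tissues and Chek2 in tumours, Fancg and Xrcc6 passed in neither, and Bard1 was under the filter. A match is a description of letters and not a binding site.

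In tumours, Mki67 spanned 2.35 log2 units, and 15 of 35 repair genes rose with it while 1, Ercc1, fell, in the same limma model over the 48 tumours. Among all genes tested 6.82% rose and 5.15% fell. By correlation 14 of 35 had a positive Pearson r past the threshold (5.99% of all genes) and 11 a positive Spearman rho (3.56%). Mki67 had a lowest, median and highest level of 10.09, 11.49 and 12.33 in sham wild-type hosts and of 9.97, 11.27 and 11.76 in irradiated wild-type hosts. For Mki67 in sham and irradiated heterozygous hosts they were 11.19, 11.42 and 12.01, and 10.66, 11.04 and 11.73. Groups overlapped throughout, and 2 tumours lay below the other 46, irradiated wild-type host replicate 22 at 9.97 and sham wild-type host replicate 5 at 10.09, the latter with the highest endothelial marker level of the series (12.29). In 15 of the 15 genes r with Mki67 was above 0 within sham wild-type, irradiated wild-type and sham heterozygous hosts, and in 14 within irradiated heterozygous hosts, with medians of 0.483, 0.678, 0.478 and 0.456. The lowest r in these groups were 0.0513, 0.335, 0.0430 and -0.0931. The 15 genes were picked by their slope over these same tumours, so the signs within groups are no separate support. The tumour count was lower without the 2 low tumours. Then 4 genes passed, Lig1 with 0.67 (adjusted p = 0.000495), Palb2 with 0.52 (adjusted p = 0.00674), Ung with 0.90 (adjusted p = 0.0184) and Blm with 0.62 (adjusted p = 0.0490), and 0.853% of all genes rose. Without replicate 22 alone 8 passed, against 3.88% of all genes, the lost calls being Brca2, Brip1, Chek2, Parp1, Rad52, Rad54l and Xrcc1. Brip1 lost its call in 10 and Rad52 in 6 of the 48 fits that left out 1 tumour. With the luminal, basal and fibroblast list means as covariates 12 passed (3.98% of all genes rose), without Chek2, Rad52 and Xrcc1, and over the 48 tumours those lists correlated with Mki67 at r = 0.190, 0.103 and -0.310 and the endothelial list at -0.432. The other 11 of the 15 kept a positive slope without the 2 low tumours. Brip1, Rad54l and Xrcc1 had a higher slope than with them, at 0.49 (from 0.43), 0.56 (from 0.51) and 0.34 (from 0.27), and Chek1, Chek2 and Fancd2 a slope lower by less than 0.1, at 0.63 (from 0.67), 0.42 (from 0.43) and 0.51 (from 0.56). The slopes of Exo1 and Brca2 were 0.84 (from 0.97) and 0.35 (from 0.45). Those of Brca1, Parp1 and Rad52 were lowered most, to 0.51 (from 0.79), 0.31 (from 0.48) and 0.23 (from 0.40). The median slope of the 15 was 0.51 without the 2 tumours and 0.51 with them, and the median SE 0.17 and 0.12.

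All 8 recombination genes tested rose with Mki67 in the 48 tumours. The slopes were 0.97 (SE 0.20, adjusted p = 0.00153) for Exo1, 0.79 (SE 0.15, adjusted p = 0.000327) for Brca1, 0.64 (SE 0.12, adjusted p = 0.000354) for Blm and 0.51 (SE 0.12, adjusted p = 0.00592) for Rad54l. Brca2, Brip1, the helicase that binds Brca1, Rad52 and Palb2 had slopes of 0.45, 0.43, 0.40 and 0.38, with adjusted p from 0.00159 to 0.0433. Brca1 had a lowest, median and highest level of 7.56, 8.86 and 9.43 in sham wild-type hosts and of 6.69, 8.57 and 9.09 in irradiated wild-type hosts. For Brca1 in sham and irradiated heterozygous hosts they were 7.72, 8.35 and 9.39, and 7.81, 8.28 and 8.82. The lowest Brca1 of all was in the tumour lowest for Mki67, at 6.69. Blm had a lowest, median and highest level of 7.28, 7.67 and 8.38 in sham wild-type hosts and of 6.39, 7.81 and 8.43 in irradiated wild-type hosts. For Blm in sham and irradiated heterozygous hosts they were 7.56, 7.85 and 8.31, and 7.11, 7.60 and 8.27. That tumour was also lowest for Blm, at 6.39. Brca2 had a lowest, median and highest level of 7.00, 7.51 and 8.24 in sham wild-type hosts and of 6.61, 7.68 and 8.24 in irradiated wild-type hosts. For Brca2 in sham and irradiated heterozygous hosts they were 7.32, 7.65 and 7.73, and 6.68, 7.48 and 7.96. It was lowest for Brca2 as well, at 6.61, and Brca2 overlapped between the 4 host groups. Rad54l had a lowest, median and highest level of 6.93, 7.77 and 8.62 in sham wild-type hosts and of 6.74, 7.86 and 8.53 in irradiated wild-type hosts. For Rad54l in sham and irradiated heterozygous hosts they were 7.73, 8.15 and 8.60, and 7.26, 7.73 and 8.35. Rad54l repeated this, with its lowest level of 6.74 in the same tumour and overlap between all hosts. Bard1, the obligate partner of Brca1, averaged 5.12, just under the filter of 5.14, and so had no test, and its r with Mki67 was 0.706 over the 48 tumours.

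Lig1 was the closest follower of Mki67 among the repair genes in tumours and the 18th closest of 12785 genes by r. Lig1 had a lowest, median and highest level of 9.43, 10.14 and 10.49 in sham wild-type hosts and of 8.59, 9.78 and 10.24 in irradiated wild-type hosts. For Lig1 in sham and irradiated heterozygous hosts they were 9.57, 9.84 and 10.19, and 9.24, 9.68 and 10.03. The 3 highest Lig1 levels were in tumours of sham wild-type hosts, the lowest, 8.59, was again in the tumour with the least Mki67, and the groups overlapped. Its slope was 0.57 (SE 0.09, adjusted p = 1.8e-05), with r = 0.728 over all tumours (rho = 0.759, permutation p = 1e-05). Within groups r was 0.457, 0.919, 0.674 and 0.603 in sham wild-type, irradiated wild-type, sham heterozygous and irradiated heterozygous hosts, and it was 0.767 without the 2 low tumours. Ung, Parp1 and Xrcc1 of base excision and single-strand break repair also rose, with slopes of 0.74, 0.48 and 0.27. Lig3, Apex1 and Ogg1 did not pass. Parp1 had a lowest, median and highest level of 9.48, 9.83 and 10.13 in sham wild-type hosts and of 8.06, 9.73 and 10.26 in irradiated wild-type hosts. For Parp1 in sham and irradiated heterozygous hosts they were 8.88, 9.68 and 10.17, and 8.77, 9.51 and 9.75. Parp1, the sensor that builds poly(ADP-ribose) at breaks, spanned 2.20 log2 units, and its slope was 0.26 (adjusted p = 0.170) without irradiated wild-type host replicate 22.

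Of the checkpoint kinases, Chek1 rose with a slope of 0.67 (SE 0.12, adjusted p = 0.000323) and Chek2 with 0.43 (SE 0.15, adjusted p = 0.0485). Atm and Atr missed the threshold at 0.31 (SE 0.11, adjusted p = 0.0592) and 0.26 (SE 0.09, adjusted p = 0.0557). Atm passed with the mean of its probe sets, and Atr with the proliferation list. The other probe sets of Atr above the filter had r with Mki67 of 0.079 and -0.292, against 0.378 for the chosen one. Chek1 had a lowest, median and highest level of 7.03, 8.32 and 8.94 in sham wild-type hosts and of 7.52, 8.27 and 9.22 in irradiated wild-type hosts. For Chek1 in sham and irradiated heterozygous hosts they were 7.63, 8.16 and 8.40, and 7.22, 7.98 and 8.54. The lowest Chek1, 7.03, was in the other low tumour, sham wild-type host replicate 5. Atm had a lowest, median and highest level of 7.87, 8.53 and 9.67 in sham wild-type hosts and of 7.67, 8.49 and 8.82 in irradiated wild-type hosts. For Atm in sham and irradiated heterozygous hosts they were 8.10, 8.35 and 8.90, and 8.09, 8.53 and 8.88. The highest Atm, 9.67, was in sham wild-type host replicate 6, a tumour with a luminal marker list under 9. Chek2 lost its call in 31 of the 48 fits that left out 1 tumour, and its slope was 0.27 (adjusted p = 0.299) without irradiated wild-type host replicate 22. Fancd2, which is ubiquitinated at crosslinks, rose with a slope of 0.56 (SE 0.10, adjusted p = 0.000338), and its r with Mki67 was 0.766 and 0.759 within sham and irradiated wild-type hosts and 0.167 and 0.00879 within sham and irradiated heterozygous hosts. That difference between hosts was not tested, and both low tumours are in wild-type hosts. In the same order of hosts r was 0.712, 0.796, 0.0430 and 0.345 for Brca1 and 0.760, 0.678, 0.0539 and 0.406 for Chek1. Ung went the other way, with 0.509, 0.617, 0.696 and 0.673. Fancd2 had a lowest, median and highest level of 6.34, 6.89 and 7.61 in sham wild-type hosts and of 5.94, 6.79 and 7.58 in irradiated wild-type hosts. For Fancd2 in sham and irradiated heterozygous hosts they were 6.59, 6.89 and 7.32, and 6.54, 6.75 and 7.22. Fancd2 levels overlapped between the host groups.

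Ercc1, whose protein and its nuclease partner cut the strand beside a bulky lesion, fell as Mki67 rose, with a slope of -0.79 (SE 0.18, adjusted p = 0.00308) and r = -0.516 (rho = -0.310, permutation p = 0.000360, adjusted p = 0.0108, and 0.190 by rank). Ercc1 had a lowest, median and highest level of 9.15, 10.49 and 11.33 in sham wild-type hosts and of 9.18, 10.12 and 12.50 in irradiated wild-type hosts. For Ercc1 in sham and irradiated heterozygous hosts they were 9.72, 10.33 and 11.03, and 9.36, 10.34 and 11.45. The highest Ercc1, 12.50, was in the tumour lowest for Mki67, and sham wild-type host replicate 5, with 11.33, was among the 3 highest. Without both, the slope was -0.39 (adjusted p = 0.434) and r was -0.241. In limma without irradiated wild-type host replicate 22 alone, the tumour lowest for Mki67, it was -0.51 (adjusted p = 0.0770). Without sham wild-type host replicate 5 alone it was -0.81 (adjusted p = 0.0172), so the call rests on replicate 22. It was also lost with array weights (-0.49, adjusted p = 0.0914). The call was kept with the luminal, basal and fibroblast covariates (-0.66, adjusted p = 0.0294) and with the proliferation list (-0.61, adjusted p = 0.0109). The 2 other probe sets of Ercc1 above the filter had r of -0.479 and -0.347. For the chosen probe set r was -0.811 within sham and -0.658 within irradiated wild-type hosts, groups that each hold 1 of the 2 low tumours. It was -0.644 within sham and 0.263 within irradiated heterozygous hosts. The other 4 nucleotide excision genes did not pass, with slopes from -0.03 for Ercc2, a helicase of TFIIH, to 0.17 for Xpa. Xpc had a lowest, median and highest level of 7.31, 8.41 and 8.79 in sham wild-type hosts and of 7.53, 8.06 and 8.96 in irradiated wild-type hosts. For Xpc in sham and irradiated heterozygous hosts they were 7.41, 8.14 and 8.59, and 7.53, 8.36 and 8.92. Xpc overlapped between all hosts. Ddb1 had a lowest, median and highest level of 11.21, 11.53 and 11.91 in sham wild-type hosts and of 11.16, 11.53 and 12.01 in irradiated wild-type hosts. For Ddb1 in sham and irradiated heterozygous hosts they were 11.28, 11.51 and 11.75, and 10.72, 11.52 and 11.97. Ddb1 varied less, and both overlapped between host groups, and their r with Mki67 was 0.107 and 0.0603.

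Lig4 and Fancg had the next lowest r with Mki67 in tumours, -0.236 and -0.201, neither past the threshold. Fancg had a lowest, median and highest level of 6.14, 6.75 and 7.60 in sham wild-type hosts and of 6.02, 6.65 and 7.40 in irradiated wild-type hosts. For Fancg in sham and irradiated heterozygous hosts they were 6.49, 6.61 and 6.70, and 6.21, 6.69 and 7.08. Fancg, a scaffold of the Fanconi core complex, varied by 1.58 log2 units without separating the hosts. None of the 3 break sensors and 3 end joining genes passed here either, with slopes from -0.32 for Lig4 to 0.37 for Mre11a. Mre11a passed without irradiated heterozygous host replicate 10, in which its own level was highest, with 0.53 (adjusted p = 0.0239). With the proliferation list in place of Mki67 Mre11a, Nbn and Xrcc6 passed, with 0.59 (adjusted p = 0.0141), 0.45 (adjusted p = 0.000103) and 0.32 (adjusted p = 0.0265), among 20 of 35 (8.27% of all genes). On Mki67, Msh6 and Pms2 did not pass, at 0.33 (SE 0.16, adjusted p = 0.185) and 0.13 (SE 0.08, adjusted p = 0.278). With the proliferation list Msh6 and Fanca passed.

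**Figure D2:**
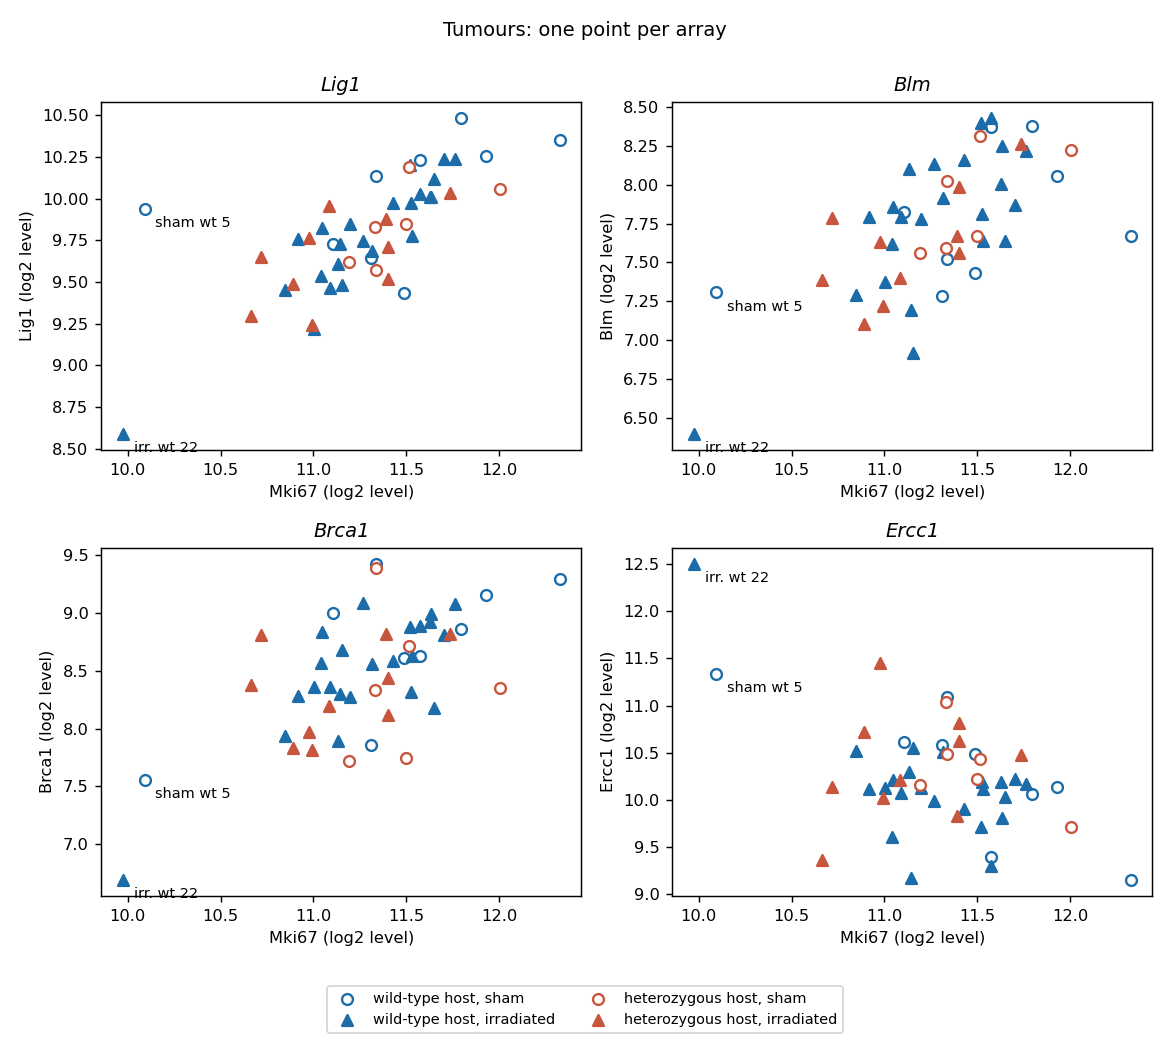
Log2 levels of Lig1, Blm, Brca1 and Ercc1 (vertical axes) against the log2 level of Mki67 (horizontal axes) in 48 tumours, 1 point per tumour, with colour for host genotype and open or filled symbols for sham or irradiated hosts. The 2 named tumours, irradiated wild-type host replicate 22 and sham wild-type host replicate 5, lie below all others in Mki67 and have high Ercc1.

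The 2 tissues shared 9 followers, Brca1, Brca2, Palb2, Rad54l, Blm, Exo1, Chek1, Lig1 and Ung, which are 81.8% of the 11 gland calls and 60% of the 15 tumour calls. The matching shares over all genes that rose with Mki67 are not given here, so this overlap is not shown to be particular to repair genes. In the limma fit on Mki67, Msh6 and Fanca passed in glands alone, and Fancd2, Brip1, Rad52, Chek2, Xrcc1 and Parp1 in tumours alone. With the proliferation list Msh6 and Fanca passed in tumours as well, and Fancd2 in glands. With array weights Fancd2, Chek2 and Parp1 passed in glands as well. A difference in slope between tissues was not tested, since their scales differ. By role, recombination gave 6 of 7 genes in glands and 8 of 8 in tumours. Base excision and single-strand break repair gave 2 and 4 of 7, the checkpoint kinases 1 and 2 of 4, the Fanconi anaemia genes 1 of 3 in each tissue and mismatch repair 1 and 0 of 2. Break sensing, end joining and nucleotide excision gave 0 positive calls of 11 in each by this fit, and the counts by role depend on it, since array weights in glands and the proliferation list in both tissues gave calls in break sensing and end joining. Without the 2 low tumours recombination gave 2 calls in tumours, Blm and Palb2, and the checkpoint kinases and Fanconi anaemia genes had no call. Without the muscle-rich arrays recombination gave 3 calls in glands. Across the 34 genes tested in both, r with Mki67 in glands and r in tumours correlated at 0.373, a description over genes, which are not independent.

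**Figure D3:**
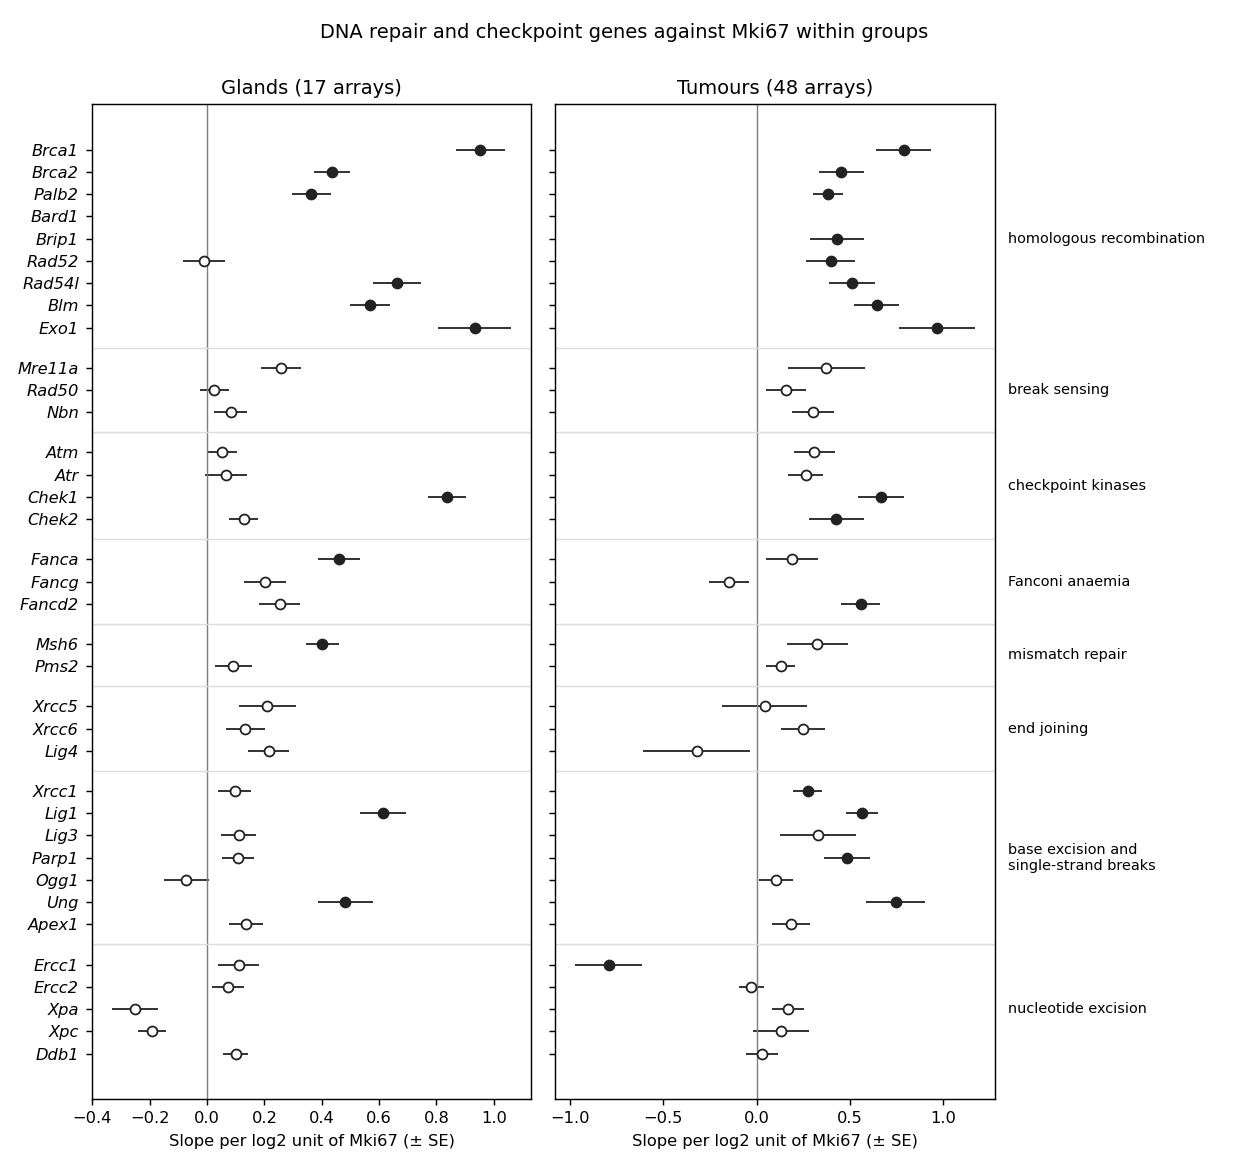
Slope of each repair gene on Mki67 (horizontal axis, log2 units per log2 unit, with its standard error as the bar), grouped by role from top to bottom, for glands on the left and tumours on the right. Filled points passed limma at an adjusted p under 0.05. The recombination genes sit to the right in both tissues except Rad52 in glands, and Ercc1 is the only filled point left of 0.

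Other repair genes, 60 named from the same pathways of which 59 were tested in each tissue, were fitted in the same way, and the slope of each named gene stands in brackets. In glands 13 of 59 rose with Mki67 (2.51% of all genes) and 0 fell, among them Pole, the leading-strand polymerase (0.70), Rad51ap1, a recombinase cofactor (0.65), and Clspn, the adaptor through which Chek1 is activated (0.71). In tumours 17 of 59 rose (6.82% of all genes) and 0 fell, among them Fanci, the partner of Fancd2 (0.60), and H2ax, the histone phosphorylated at breaks (0.94). Of nucleotide excision, Ddb2 (0.72) and Ercc8 (0.36) rose there as well, while Ercc3, Ercc4, Ercc5 and Rad23b did not pass. Of mismatch repair, Pms1 (0.54) and Msh3 (0.37) rose, and Mlh3 did not pass. Without the 2 low tumours 2 of 59 passed (0.853% of all genes). Their median r was 0.305 in glands and 0.251 in tumours, between the medians of all genes (-0.011 and 0.021) and that of the repair genes described above (0.551 and 0.378).

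Genes of 9 pairs whose proteins bind or signal to each other were correlated across arrays, 7 pairs in glands and 8 in tumours after the filter, with permutation p-values adjusted over all genes for each first partner. In glands Brca2 and Palb2 correlated at r = 0.806 (rho = 0.806, permutation p = 0.000140, adjusted p = 0.0122), against 2.37% of all genes that correlated positively with Brca2. With Mki67 regressed out of both, their r was 0.276. In tumours Brca1 and Brip1 correlated at r = 0.622 (rho = 0.689, permutation p = 2e-05, adjusted p = 0.00130), against 4.95% of all genes, at 0.613 without the 2 arrays farthest from the median of Brca1, and at 0.513 with Mki67 removed. Atr and Chek1 in tumours correlated at r = 0.495 (permutation p = 0.000430, adjusted p = 0.0387, against 0.978% of all genes), and by rank the adjusted p was 0.116 (rho = 0.426, r = 0.345 without the 2 arrays farthest from the median of Atr). Brca2 and Palb2 in tumours had r = 0.280, and the Ku pair Xrcc5 and Xrcc6 had 0.481 in glands and 0.169 in tumours, neither past the threshold. Rad50 with Mre11a, Rad50 with Nbn, Xrcc1 with Lig3 and Atm with Chek2 did not pass in either tissue.

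Radiation, genotype and time were compared next, in 9 gland and 5 tumour comparisons fitted with limma and adjusted by the Benjamini-Hochberg method over all genes tested. In none of the 14 did a repair gene pass, and the values below give, for each, the share of all genes that passed and the count at an unadjusted p under 0.05. Genes whose levels are given below were picked for a small p. Where their groups do not overlap, this describes the levels and adds no support. The share of all genes whose groups do not overlap is not given here. The standard errors of single genes were wide, with a median of 0.18 log2 units in a comparison of 2 wild-type gland groups and of 0.16 between sham and irradiated wild-type hosts, so a missed threshold does not show that groups were alike. The labels do not say whether the gland arrays of a group came from separate mice, so the p-values measure the spread between these arrays, which may be partly technical.

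At 1 week after 10 cGy, 0 of 34 repair genes passed in wild-type glands, as did 0% of all genes, and 0 of 34 had an unadjusted p under 0.05, against 4.54% of all genes. The median difference was -0.05 (-0.02 over all genes), with 11 genes higher and 23 lower, while Mki67 differed by 0.15 (SE 0.59). The smallest p was that of Rad52, an annealing factor, with a difference of -0.30 (SE 0.16, p = 0.0773, adjusted p = 0.958). Rad52 measured 5.63, 5.78 and 5.65 in the wild-type sham glands, 5.58, 5.24 and 5.32 in the wild-type glands 1 week after 10 cGy and 5.20, 5.78 and 5.93 in those at 4 weeks. Heterozygous glands gave Rad52 levels of 5.42, 5.59 and 5.60 after sham treatment, 5.45 and 5.37 at 1 week and 5.60, 5.67 and 5.57 at 4 weeks. All 3 irradiated wild-type glands lay below the 3 sham glands at 1 week, and the heterozygous sham and 1-week groups overlapped. In heterozygous glands at 1 week 0 passed, against 0% of all genes, 0 had an unadjusted p under 0.05 (3.96% of all genes), and the median difference was 0.02 (-0.06 over all genes). Atm had the smallest p there, with 0.21 (SE 0.13, p = 0.139, adjusted p = 0.995). Its 2 irradiated levels, 7.28 and 7.42, lay above the 3 sham levels. The genotypes' changes at 1 week differed for 0 of 34 genes (0% of all genes, and 0 at an unadjusted p under 0.05, 3.05% of all genes), with the smallest p for Lig3, the ligase of single-strand break repair, at 0.30 (SE 0.22, p = 0.195, adjusted p = 1.000).

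At 4 weeks the wild-type glands had most repair genes on one side of 0. The difference from sham was above 0 for 31 of 34 genes, with a median of 0.12 against 0.01 over all genes, yet 0 passed (0% of all genes), and 2 had an unadjusted p under 0.05 (2.29% of all genes). Mki67 was higher by 0.85 (SE 0.59) in the same arrays, and with Mki67 in the model the median difference was -0.04, with 10 genes above 0. Chek2 had the smallest p, 0.35 (SE 0.13, p = 0.0187, adjusted p = 1.000), and Lig3 the next, 0.33 (SE 0.15, p = 0.0407, adjusted p = 1.000). Chek2 measured 6.68, 6.46 and 6.55 in the wild-type sham glands, 6.44, 6.69 and 6.58 in the wild-type glands 1 week after 10 cGy and 6.85, 6.93 and 6.94 in those at 4 weeks. Heterozygous glands gave Chek2 levels of 6.41, 6.38 and 6.86 after sham treatment, 6.63 and 6.64 at 1 week and 6.68, 6.93 and 6.83 at 4 weeks. All 3 wild-type 4-week levels of Chek2 lay above all 3 sham levels. Lig3 measured 7.24, 7.12 and 7.35 in the wild-type sham glands, 6.88, 7.21 and 7.14 in the wild-type glands 1 week after 10 cGy and 7.57, 7.48 and 7.64 in those at 4 weeks. Heterozygous glands gave Lig3 levels of 6.74, 7.32 and 7.29 after sham treatment, 7.25 and 7.26 at 1 week and 7.33, 7.21 and 7.40 at 4 weeks. The wild-type 4-week levels of Lig3 likewise lay above the sham ones. In heterozygous glands at 4 weeks 17 genes were above and 17 below 0, with a median of 0.000592. There 0 of 34 passed, against 0.0154% of all genes (2 genes), and 0 had an unadjusted p under 0.05 (5.29% of all genes).

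Ercc1 had the smallest p in heterozygous glands at 4 weeks, -0.34 (SE 0.17, p = 0.0598, adjusted p = 0.982). Ercc1 measured 9.39, 9.05 and 8.92 in the wild-type sham glands, 8.92, 9.21 and 9.45 in the wild-type glands 1 week after 10 cGy and 9.20, 9.09 and 9.19 in those at 4 weeks. Heterozygous glands gave Ercc1 levels of 9.35, 9.19 and 9.49 after sham treatment, 9.71 and 9.20 at 1 week and 8.80, 9.06 and 9.15 at 4 weeks. Its 3 heterozygous 4-week levels lay below the 3 heterozygous sham levels. The change at 4 weeks was compared between genotypes with an interaction term, which 0 of 34 genes passed (0% of all genes), with 1 at an unadjusted p under 0.05 (1.78% of all genes). Its median was -0.13, with 26 genes below 0, and 0.10 with Mki67 in the model, where 22 were above 0. Mki67 had an interaction of -1.08 (SE 0.83). The gene at an unadjusted p under 0.05 was Pms2, a mismatch repair endonuclease, with -0.60 (SE 0.22, p = 0.0140, adjusted p = 1.000). Pms2 measured 6.51, 6.02 and 6.16 in the wild-type sham glands, 6.37, 6.27 and 6.43 in the wild-type glands 1 week after 10 cGy and 6.77, 6.40 and 6.46 in those at 4 weeks. Heterozygous glands gave Pms2 levels of 6.72, 6.38 and 6.77 after sham treatment, 6.51 and 6.72 at 1 week and 6.25, 6.48 and 6.28 at 4 weeks. In wild-type glands 2 of the 3 sham levels of Pms2 lay below the lowest 4-week level, and in heterozygous glands 2 of the 3 4-week levels lay below the lowest sham level.

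Glands heterozygous for Tgfb1 were compared with wild-type glands. In sham glands 25 of 34 genes were above 0, with a median of 0.19 against -0.00209 over all genes, and with Mki67, itself higher by 0.57 (SE 0.59), in the model the median was 0.03. None of the 34 passed (0% of all genes), and 1 had an unadjusted p under 0.05 (3.55% of all genes), Pms2, with 0.40 (SE 0.15, p = 0.0207, adjusted p = 0.965). Averaged over sham, 1 week and 4 weeks, the median was 0.14, or 0.08 with Mki67 in the model, 0 of 34 passed (0.0463% of all genes, 6 genes) and 2 had an unadjusted p under 0.05 (12% of all genes). Ung had the smallest p, 0.57 (SE 0.21, p = 0.0160, adjusted p = 0.336). Ung measured 7.08, 6.16 and 6.36 in the wild-type sham glands, 6.09, 6.90 and 6.60 in the wild-type glands 1 week after 10 cGy and 6.70, 6.60 and 6.77 in those at 4 weeks. Heterozygous glands gave Ung levels of 6.60, 6.92 and 7.64 after sham treatment, 7.13 and 7.26 at 1 week and 6.41, 7.85 and 7.43 at 4 weeks. The highest wild-type level of Ung was 7.08, and 5 of the 8 heterozygous glands lay above it. Nbn, a break sensor, had 0.19 (SE 0.08, p = 0.0351, adjusted p = 0.387). Between 1 and 4 weeks after 10 cGy, over both genotypes, 0 of 34 genes passed (0.0695% of all genes, 9 genes) and 2 had an unadjusted p under 0.05 (15.7% of all genes), a share under that of all genes, with Chek2 first at 0.26 (SE 0.10, p = 0.0194, adjusted p = 0.243). Of the 6 glands at 4 weeks, 5 lay above all 5 irradiated glands at 1 week, whose highest Chek2 level was 6.69.

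**Figure D4:**
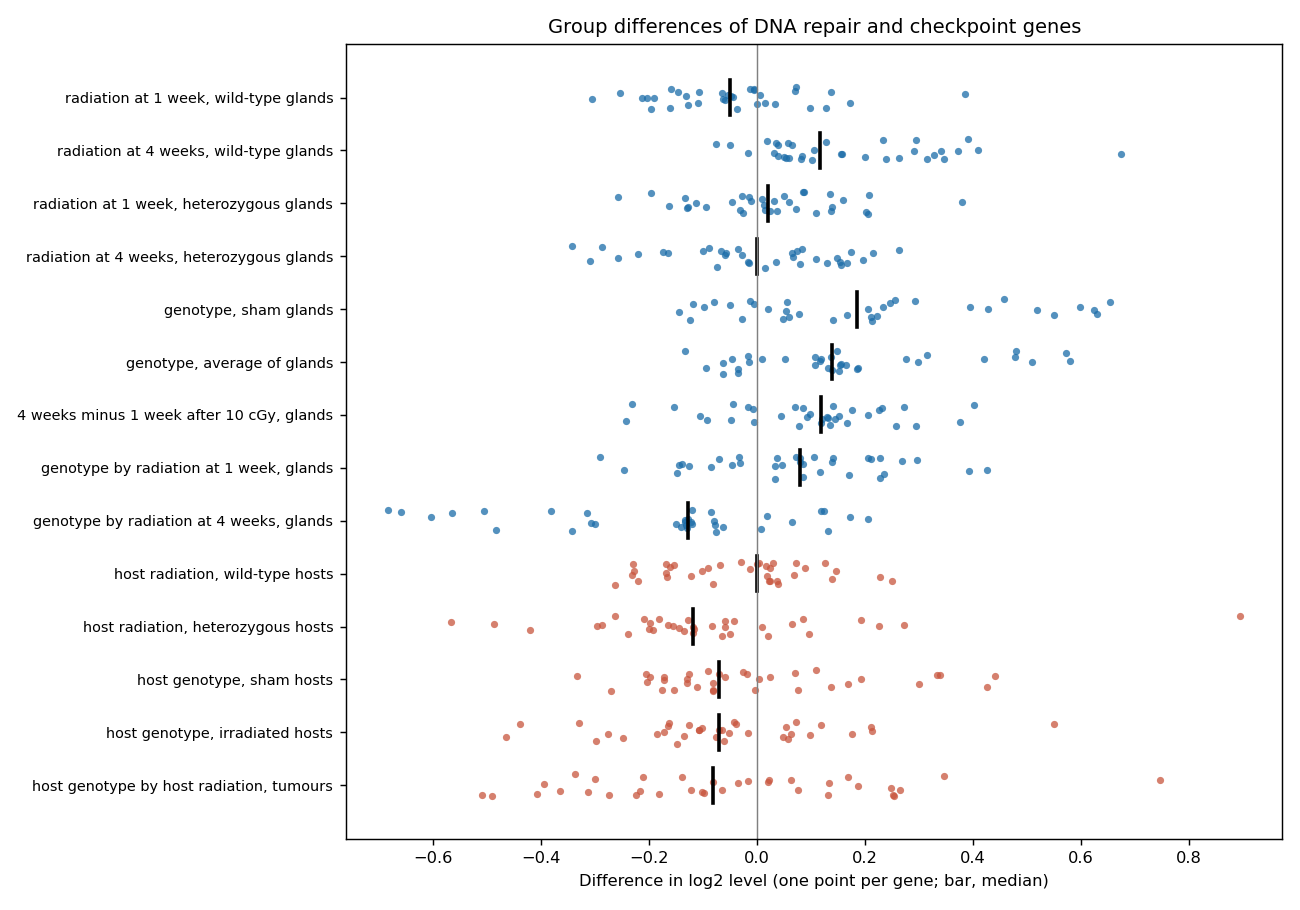
Difference in log2 level between groups (horizontal axis) for each repair gene, 1 point per gene, with the median as a black bar, in 9 gland comparisons (blue) and 5 tumour comparisons (red). In wild-type glands at 4 weeks 31 of 34 points lie above 0, and no point passed the adjusted test in any comparison.

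In tumours of wild-type hosts, host irradiation gave 0 of 35 genes past the threshold (0% of all genes) and 2 at an unadjusted p under 0.05 (6.94% of all genes), with a median of 8.96e-05. Pms2 had the smallest p, -0.23 (SE 0.09, p = 0.0117, adjusted p = 0.575), and Xrcc1, the scaffold of single-strand break repair, the next, -0.22 (SE 0.10, p = 0.0294, adjusted p = 0.676). Pms2 had a lowest, median and highest level of 8.07, 8.21 and 8.73 in sham wild-type hosts and of 7.82, 8.05 and 8.50 in irradiated wild-type hosts. For Pms2 in sham and irradiated heterozygous hosts they were 8.06, 8.14 and 8.69, and 7.54, 8.08 and 8.29. The Pms2 levels overlapped, and the median was lower in irradiated than in sham wild-type hosts. In heterozygous hosts the median difference with irradiation was -0.12, 26 of 35 genes being below 0, while Mki67 differed by -0.35 (SE 0.22), and with Mki67 in the model the median was -0.000290. There 0 of 35 passed (0% of all genes) and 1 had an unadjusted p under 0.05 (3.95% of all genes), Lig4, with 0.89 (SE 0.42, p = 0.0385, adjusted p = 1.000), which was 0.58 without irradiated heterozygous host replicate 18 and 0.67 without sham heterozygous host replicate 1.

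Host genotype gave 0 of 35 genes past the threshold in sham hosts (0% of all genes) and in irradiated hosts (0.00782% of all genes), with 2 and 2 at an unadjusted p under 0.05 (5.29% and 5.6% of all genes). In sham hosts the smallest p was that of Xpa, the damage verification protein of nucleotide excision, with 0.34 (SE 0.13, p = 0.0137, adjusted p = 0.872). Xpa had a lowest, median and highest level of 7.12, 7.34 and 7.66 in sham wild-type hosts and of 6.61, 7.54 and 7.88 in irradiated wild-type hosts. For Xpa in sham and irradiated heterozygous hosts they were 7.46, 7.63 and 7.97, and 7.20, 7.52 and 7.86. Xpa overlapped between the hosts. In irradiated hosts it was that of Rad52, with -0.33 (SE 0.15, p = 0.0349, adjusted p = 0.864). Rad52 had a lowest, median and highest level of 6.34, 6.96 and 7.52 in sham wild-type hosts and of 6.13, 7.02 and 7.62 in irradiated wild-type hosts. For Rad52 in sham and irradiated heterozygous hosts they were 6.52, 6.71 and 8.19, and 6.37, 6.79 and 6.99. Rad52 also overlapped. The interaction of host genotype and host radiation had 0 of 35 genes past the threshold (0% of all genes) and 0 at an unadjusted p under 0.05 (4.83% of all genes), with the smallest p again for Xpa, -0.27 (SE 0.16, p = 0.0986, adjusted p = 1.000). With the mean of its probe sets in place of the brightest this difference was 0.00290 and so changed sign.

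Lig4, which seals double-strand breaks in end joining, had single tumours far from the rest. Lig4 had a lowest, median and highest level of 6.00, 7.56 and 10.12 in sham wild-type hosts and of 6.94, 7.77 and 9.68 in irradiated wild-type hosts. For Lig4 in sham and irradiated heterozygous hosts they were 6.29, 7.57 and 7.96, and 7.30, 7.92 and 11.20. The 5 highest tumours were irradiated heterozygous host replicate 18 at 11.20, sham wild-type host replicate 7 at 10.12, irradiated wild-type host replicate 2 at 9.68 and irradiated heterozygous host replicates 9 and 12 at 9.28 and 9.04, against a median of 7.73 over the 48. The genes next to Lig4 were high in the same tumours. The 20 nearest genes tested, whose RefSeq starts lie in chr8:4253102-11611581 (GRCm38.p6), had a median departure from their own tumour medians of over 1 log2 unit in 5 tumours, and these were the same 5, with median departures of 1.26, 1.28, 1.05, 1.58 and 1.33. In the other 43 the median departure stayed within 1. Over the 48 tumours Lig4 and that neighbour median correlated at r = 0.790, as a description of tumours that share 1 scale. It was the highest such r of the repair genes tested. Xrcc6, Atm and Rad50, whose neighbours never departed by over 1, had 0.733, 0.658 and 0.641. The lowest were -0.125 for Ung and -0.059 for Lig3.

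Mre11a, the nuclease of the break-sensing complex, showed the same in fewer tumours. Mre11a had a lowest, median and highest level of 7.20, 8.23 and 9.39 in sham wild-type hosts and of 7.44, 8.29 and 9.84 in irradiated wild-type hosts. For Mre11a in sham and irradiated heterozygous hosts they were 8.01, 8.59 and 9.13, and 7.52, 8.41 and 10.72. In irradiated heterozygous host replicate 10 it reached 10.72, 2.40 above its median over all tumours, and the 20 nearest genes (starts in chr9:13431361-18292267) stood 2.35 above theirs, 17 of them by over 1. In sham heterozygous host replicate 5 the same neighbours stood 1.31 above their medians and Mre11a 0.68 above its own, the 8th highest of 48. In sham heterozygous host replicate 2 the neighbours stood 0.999 above theirs, just inside the limit of 1, with Mre11a at 9.13. The next highest Mre11a levels after 10.72 came with neighbours less far up. These were 9.84 in irradiated wild-type host replicate 3 (neighbours 0.46 above) and 9.39 in sham wild-type host replicate 6 (0.20 above). Exo1 was different. In sham wild-type host replicate 9 it reached 11.06, with 8.56 the next highest of that group, 2.85 above the group median, and its other probe set above the filter stood 2.71 above, but its 20 neighbours on chromosome 1 stood only 0.16 above theirs in the median. For Lig3, neighbours were 1.04 below their medians in irradiated wild-type host replicate 3, and Lig3 itself was 0.17 below its own. For the other 32 genes tested in tumours no tumour had neighbours over 1 log2 unit from their medians. The limit of 1 log2 unit and the 20 neighbours were chosen after the Lig4 and Mre11a values were seen, and why neighbouring genes stood together was not tested.

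**Figure D5:**
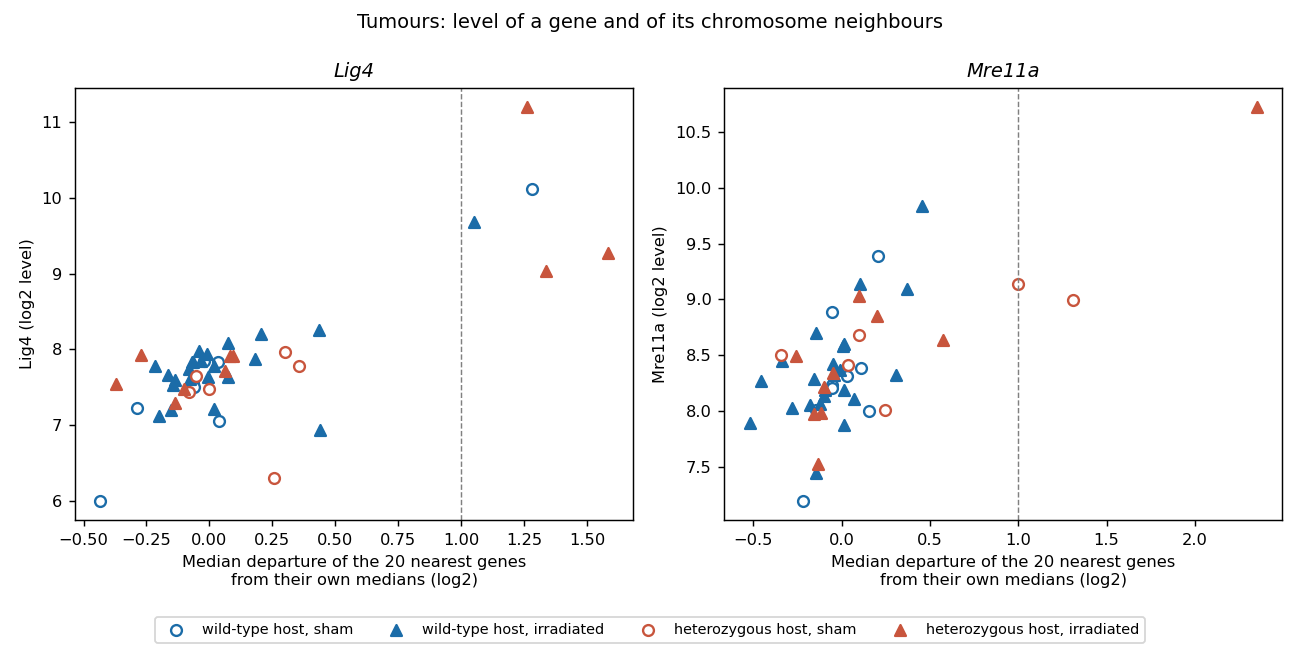
Log2 levels of Lig4 and Mre11a (vertical axes) against the median departure of the 20 nearest tested genes from their own medians (horizontal axes, log2 units), 1 point per tumour, with colour for host genotype and open or filled symbols for sham or irradiated hosts and a dashed line at 1. All 5 tumours right of the line for Lig4 hold its 5 highest levels, and 1 tumour stands far right for Mre11a at 10.72.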

How the data were processed

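The series measured RNA of mammary glands (17 arrays) and of mammary tumours (48 arrays) on Affymetrix mouse arrays, from 80 ng and 100 ng of RNA. Gland values were deposited as linear intensity and were taken to log2 here. Tumour values were deposited by the authors as log2 values. RMA normalization is named per the submitters' processing notes, with no version, and background and scaling steps are otherwise not given in the sources used here. The tissues were analysed apart. Array number and signal over background limit precision, and no read depth applies.

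Of 45101 probe sets, 34958 have 1 gene symbol, 932 several and 9211 none in the platform annotation, and 99.4% of the former matched RefSeq. A gene was tested where its brightest probe set averaged over the 40th percentile of all probe sets (4.15 in glands, 5.14 in tumours), leaving 12945 and 12786 genes. Group differences, and slopes on Mki67 with a mean per group, were fitted with limma 3.58.1 in R 4.3.3 (lmFit, trended eBayes, residual degrees of freedom 11 and 44 for group means), with Benjamini-Hochberg adjustment over all genes tested and a threshold of 0.05. Correlations had 2-sided permutation p-values from 100000 resamples, so that 1e-05 is the smallest they can give. The fits were tested on simulated data.

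The genes and lists were chosen with earlier results of these data known. Values in every gland array, and the lowest, median and highest level in each tumour group, are given for the 3 highest and the 3 lowest r with Mki67 in each tissue, for the smallest p in each group comparison and for Brca1, Brca2, Atm, Chek1, Rad54l, Parp1, Xpc and Ddb1; the tumour levels of Mre11a and Exo1 and the neighbouring genes were added after their values were seen. Replicate numbers were checked as pairs: between sham and 4-week glands every same-numbered pair had a correlation of deviations over 0.1 (0.123 to 0.216 in wild-type, 0.112 to 0.316 in heterozygous glands), with no label saying what a number marks, and in the other gland and tumour comparisons some pairs did not. Alternatives covered the probe set rule, the filter, the normalization, weights, covariates, blocks and left-out arrays.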

Additional observations from a re-analysis of the deposited data

Results flagged for a closer look

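Of 108 combinations of a repair gene and a tumour group of 6 to 10 tumours, 11 had a single tumour at the edge, too far from its nearest neighbour by Dixon's criterion, which chance meets in about 1 in 20 groups. In sham wild-type hosts, Atm reached 9.67 in replicate 6 (next 8.74), Exo1 reached 11.06 in replicate 9 (next 8.56) and Lig4 reached 10.12 in replicate 7 (next 7.85), while Ercc2 was lowest in replicate 3 at 7.61 (next 7.94). In sham heterozygous hosts, Nbn reached 8.75 in replicate 1 (next 8.44) and Pms2 reached 8.69 in replicate 6 (next 8.18), while Lig4 was lowest in replicate 1 at 6.29 (next 7.44). In irradiated heterozygous hosts, Lig4 reached 11.20 in replicate 18 (next 9.28) and Mre11a reached 10.72 in replicate 10 (next 9.03), while Parp1 was lowest in replicate 12 at 8.77 (next 9.27) and Xrcc5, a Ku subunit, in replicate 18 at 5.87 (next 7.12). Irradiated heterozygous host replicate 18 thus held both the highest Lig4 and the lowest Xrcc5 of its group. The 20 genes nearest to Lig4 and to Mre11a stood high in the 3 tumours named for a high level of those genes, and the neighbours of Xrcc5 departed by 0.02 in the median.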

How the results depend on the processing

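With no group comparison calling a repair gene, every alternative run also gave 0 calls in the 14 group comparisons. For genes that rose with Mki67 in glands (11), array weights gave 20 (7.34% of all genes rose, against 2.51% without weights), leaving out the muscle-rich arrays gave 6 (1.1%), and leaving out 1 array at a time gave 10 to 13 (1.58% to 2.90%). In tumours (15), leaving out the 2 tumours farthest from the Mki67 median, an alternative chosen after seeing the data, gave 4 (0.853% of all genes, against 6.82% with them), and leaving out 1 tumour at a time gave 8 to 18 (3.43% to 7.95%), with 8 (3.88%) without irradiated wild-type host replicate 22. Fitting the replicate number as a block gave 11 in glands (1.68% of all genes) and 0 in tumours (0%), where no label ties tumours of the same number to each other, and Chek2 in tumours changed sign under that replicate block (-0.0113 against 0.43). Of the partner pairs in tumours, 1 passed by Spearman's rho, chosen after seeing the data, against 2 by Pearson's r. The interaction for Xpa in tumours was 0.00290 with the mean of probe sets. The cause of these changes was not tested. The other counts moved by at most 1.5 times, in 175 of 180 settings that kept all arrays or left out a named set and in 457 of 458 that left out 1 array. For single genes, 429 values kept direction and side of the threshold and 46 lost their call, and with 1 array left out 1295 did and 53 lost it. Small gland groups, of 2 or 3 arrays, and tumours of uneven Mki67 limit these comparisons.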
